A study of Malus domestica with 6 samples.

Results

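The 4 genes described here are the rows of the deposited table whose annotation carries the word GDSL, out of 1261 listed gene models. They encode GDSL-type lipases, or acylhydrolases, and come from RNA sequencing of the outer fruit skin (exocarp) of apple, Malus domestica. The skin came from 3 fully russeted varieties with a rough, corky surface (St Edmund Pippin, Reinette Parmentier and Patte de Loup) and 3 fully waxy varieties with a smooth, wax-covered surface (CRAW/Ma/AG94 and CRAW/Ma/AF42, called AG94 and AF42 here, and Gala). Each variety gave 1 library of untreated skin from orchard fruit, so n = 3 per phenotype, the spread is that between varieties, and skin type cannot be told apart from other differences between the russeted and the waxy varieties. How many trees and fruits stand behind a library is not stated in the labels.

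GDSL-type enzymes are named for a short motif, glycine, aspartate, serine and leucine, that holds the catalytic serine. Plants carry large families of them, and many members are secreted. In tomato fruit a GDSL enzyme joins acylglycerol precursors into cutin, the polyester of the cuticle, outside the epidermal cell. In Arabidopsis roots some family members build suberin, the waterproof polymer of cork cell walls, and others break it down. The description in the table names the family only, so the part that each apple gene plays in the skin is not known from it.

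All 4 genes carry the protein domain of the family, and the table has no further gene with that domain. Each had a different Arabidopsis match: AT3G16370.1 for MDP0000928830, AT1G74460.1 for MDP0000660239, AT5G03610.1 for MDP0000136589 and AT1G75900.1 for MDP0000146006. No other listed gene shared any of these matches. Coding lengths were 1074, 1191, 1098 and 1167 bases in the same order. The apple identifiers were not found in the gene table at hand, so no positions or sequences are given.

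MDP0000928830 was higher in the waxy skins, and the other 3 GDSL genes were higher in the russeted skins. In russeted exocarp MDP0000928830 fell 9.59-fold, whereas MDP0000660239, MDP0000136589 and MDP0000146006 rose 8.16-fold, 8.73-fold and 13.4-fold, by ratios of mean RPKM. RPKM is the number of gene reads scaled to the coding length of the gene and to the mapped reads of the library. All 4 passed the low-count filter. At a Benjamini-Hochberg adjusted p under 0.05 in edgeR's quasi-likelihood test, 3 of the 4 rose and 1 fell, where 19.2% of the 1246 tested genes rose and 9.31% fell. The listed genes are those that the authors' own test of these libraries had picked, so every p below describes picked genes and is not independent evidence.

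**Figure D1:**
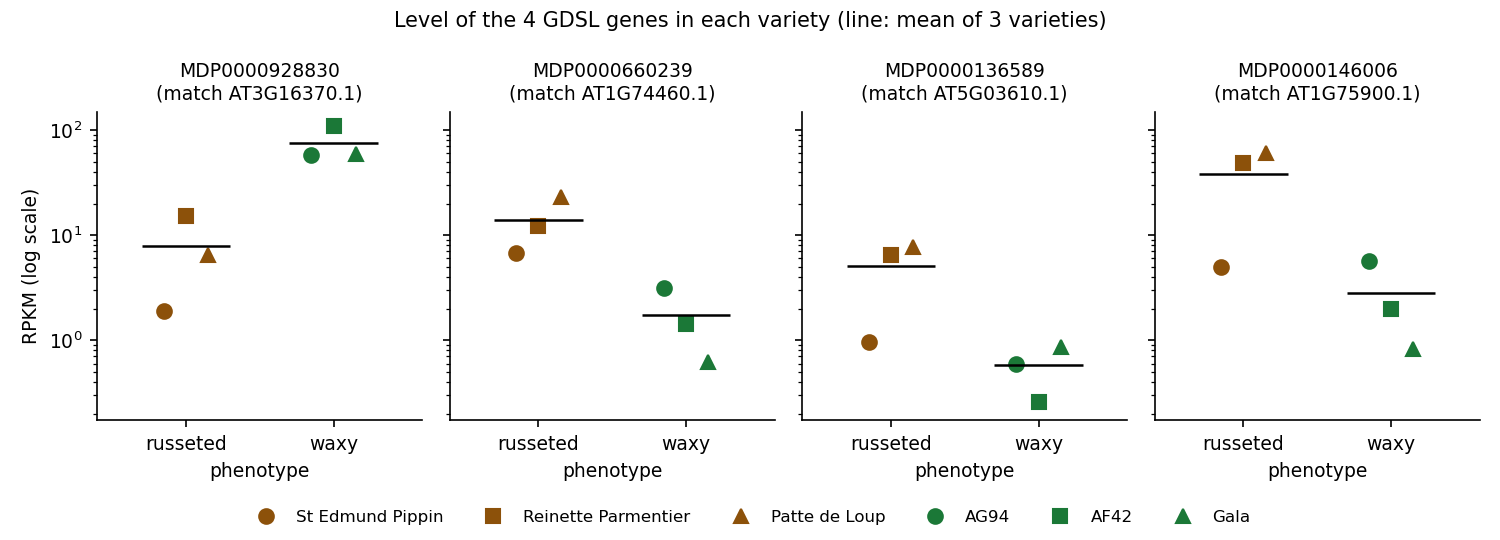
RPKM (log scale) of each GDSL gene in each variety, with the mean of 3 varieties as a line. MDP0000928830 lies between 57.4 and 110.53 in waxy and between 1.89 and 15.3 in russeted varieties; the other 3 genes have higher russeted means, and MDP0000146006 overlaps, with 4.99 in St Edmund Pippin and 5.73 in AG94.

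MDP0000928830 had 1033 reads in AG94, 1245 in AF42 and 600 in Gala, against 23 in St Edmund Pippin, 313 in Reinette Parmentier and 120 in Patte de Loup. Its level was 57.4, 110.53 and 59.17 RPKM in the waxy varieties and 1.89, 15.3 and 6.5 RPKM in the russeted ones, in the same order. The phenotypes did not overlap, and the lowest waxy level was 3.75 times the highest russeted level. The mean was 75.7 ± 30.2 RPKM (SD, n = 3) in waxy and 7.90 ± 6.81 RPKM in russeted exocarp, a log2 fold change of -3.25 ± 0.68 (SE; edgeR's quasi-likelihood test, adjusted p = 0.0117). St Edmund Pippin kept 2.5% of the waxy mean, Patte de Loup 8.59% and Reinette Parmentier 20.2%.

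MDP0000660239 had the smallest ratio between russeted varieties of the 3 risen genes (3.40 between highest and lowest). It had 92 reads in St Edmund Pippin, 277 in Reinette Parmentier and 474 in Patte de Loup, against 62 in AG94, 18 in AF42 and 7 in Gala. Levels were 6.82, 12.21 and 23.16 RPKM in these russeted varieties and 3.11, 1.44 and 0.62 RPKM in the waxy ones. Every russeted value was above every waxy value, with a ratio of 2.19 between the nearest pair. The russeted mean of 14.1 ± 8.33 RPKM (SD, n = 3) compared with a waxy mean of 1.72 ± 1.27 RPKM, and the log2 fold change was 2.99 ± 0.66 (SE; edgeR's quasi-likelihood test, adjusted p = 0.0149). Without Patte de Loup, the variety with the highest level, the log2 fold change was 2.43 and the call was lost (adjusted p = 0.0606).

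MDP0000136589 had the fewest reads of the 4 over the 6 libraries (315 in all), with 12 reads in St Edmund Pippin, 134 in Reinette Parmentier and 146 in Patte de Loup, against 11 in AG94, 3 in AF42 and 9 in Gala. Levels were 0.96, 6.41 and 7.74 RPKM in the russeted and 0.6, 0.26 and 0.87 RPKM in the waxy varieties. The phenotypes did not overlap, but St Edmund Pippin stood only 1.10 times above Gala. The 12 reads of St Edmund Pippin (95% Poisson interval 6.20 to 21.0) and the 9 of Gala (4.12 to 17.1) were not separable by counting error, which is all that these intervals cover. The russeted mean of 5.04 ± 3.59 RPKM (SD, n = 3) compared with a waxy mean of 0.577 ± 0.306 RPKM, and the log2 fold change was 3.13 ± 0.73 (SE; edgeR's quasi-likelihood test, adjusted p = 0.0188). Leaving out Reinette Parmentier (adjusted p = 0.0696) or AF42 (adjusted p = 0.0673) ended the call.

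MDP0000146006 had the largest rise and was the most abundant GDSL gene of Reinette Parmentier and Patte de Loup. It had 66 reads in St Edmund Pippin, 1092 in Reinette Parmentier and 1206 in Patte de Loup, against 112 in AG94, 24 in AF42 and 9 in Gala. Levels were 4.99, 49.12 and 60.14 RPKM in the russeted and 5.73, 1.96 and 0.82 RPKM in the waxy varieties. St Edmund Pippin was below AG94, so the phenotypes overlapped. The russeted mean of 38.1 ± 29.2 RPKM (SD, n = 3) compared with a waxy mean of 2.84 ± 2.57 RPKM, and the log2 fold change was 3.72 ± 0.83 (SE; edgeR's quasi-likelihood test, adjusted p = 0.0157). Leaving out Reinette Parmentier ended the call (adjusted p = 0.0616). An exact permutation test of the mean RPKM (two-sided, 3 against 3) gave p = 0.2 for this gene and p = 0.1, the smallest that the design allows, for each of the other 3.

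Values lay wholly on one side in 3 of the 4 genes: 2 with russeted above waxy, as in 63.1% of the listed genes, and 1 with russeted below, as in 24.3%. In the authors' deposited table the signed fold was -8.7 for MDP0000928830, 8.84 for MDP0000660239, 9.23 for MDP0000136589 and 14.48 for MDP0000146006. The false discovery rate of the authors' deposited table was 0.00555 for MDP0000928830 and 0.0959, 0.183 and 0.193 for the other 3, in that order. A rate under 0.05 was thus held by the fallen gene only among the 4, where 25.1% of the listed genes had such a rate and a higher russeted mean and 10.8% had one and a lower mean.

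The russeted varieties differed widely among themselves in these genes. St Edmund Pippin was the lowest russeted variety in all 4, the risen and the fallen alike; over all genes it was the lowest in 43.9% of the risen and 50.9% of the fallen. Patte de Loup was the highest russeted variety in all 3 risen genes (52.3% of all risen genes), and Reinette Parmentier in the fallen one (58 of all 116 fallen genes). The ratio of the highest to the lowest russeted level was 12.1 in MDP0000146006, 8.06 in MDP0000136589 and 3.40 in MDP0000660239. Among the 920 tested genes with a higher russeted mean this ratio had a median of 1.92, and 99.9%, 99.6% and 91.1% of them had a smaller one, respectively. Its median was 2.43 among the 239 risen genes. A wide range was not particular to the GDSL genes: the 6 cork genes given below summed to 105 RPKM in St Edmund Pippin and 530 in Patte de Loup. In MDP0000146006 Reinette Parmentier alone was 9.84 times above St Edmund Pippin, while Patte de Loup was 1.22 times above Reinette Parmentier. In MDP0000928830 the ratio was 8.10, against a median of 2.82 among the 326 tested genes with a lower russeted mean. With 1 library per variety, a difference between varieties has no replicate check.

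The waxy varieties had an order of their own. AG94 was the highest waxy variety for MDP0000660239 and MDP0000146006, and Gala the lowest, with ratios of 5.02 and 6.99 between them. For MDP0000136589 Gala was the highest and AF42, with 3 reads, the lowest. For MDP0000928830 AF42 stood 1.87 times above Gala, and Gala and AG94 lay close together at 59.17 and 57.4 RPKM.

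The summed level of the 4 genes did not separate the phenotypes, but its composition did. MDP0000928830 was listed as lower and the others as higher in russeted skins, so a shift in composition largely follows from that selection. The sum was 14.66 RPKM in St Edmund Pippin, 83.04 in Reinette Parmentier and 97.54 in Patte de Loup, against 66.84 in AG94, 114.19 in AF42 and 61.48 in Gala. Its russeted mean was 65.1 ± 44.3 RPKM (SD, n = 3) and its waxy mean 80.8 ± 29.0 RPKM, shared reads included (exact permutation test, two-sided, p = 0.7). MDP0000928830 made up 85.9%, 96.8% and 96.2% of the sum in AG94, AF42 and Gala, and 12.9%, 18.4% and 6.66% in St Edmund Pippin, Reinette Parmentier and Patte de Loup. The share averaged 93.0% ± 6.15 (SD, n = 3) in waxy and 12.7% ± 5.88 in russeted exocarp (exact permutation test, two-sided, p = 0.1, the smallest possible). St Edmund Pippin, with the smallest sum by far, had a share within the range of the other russeted varieties.

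**Figure D2:**
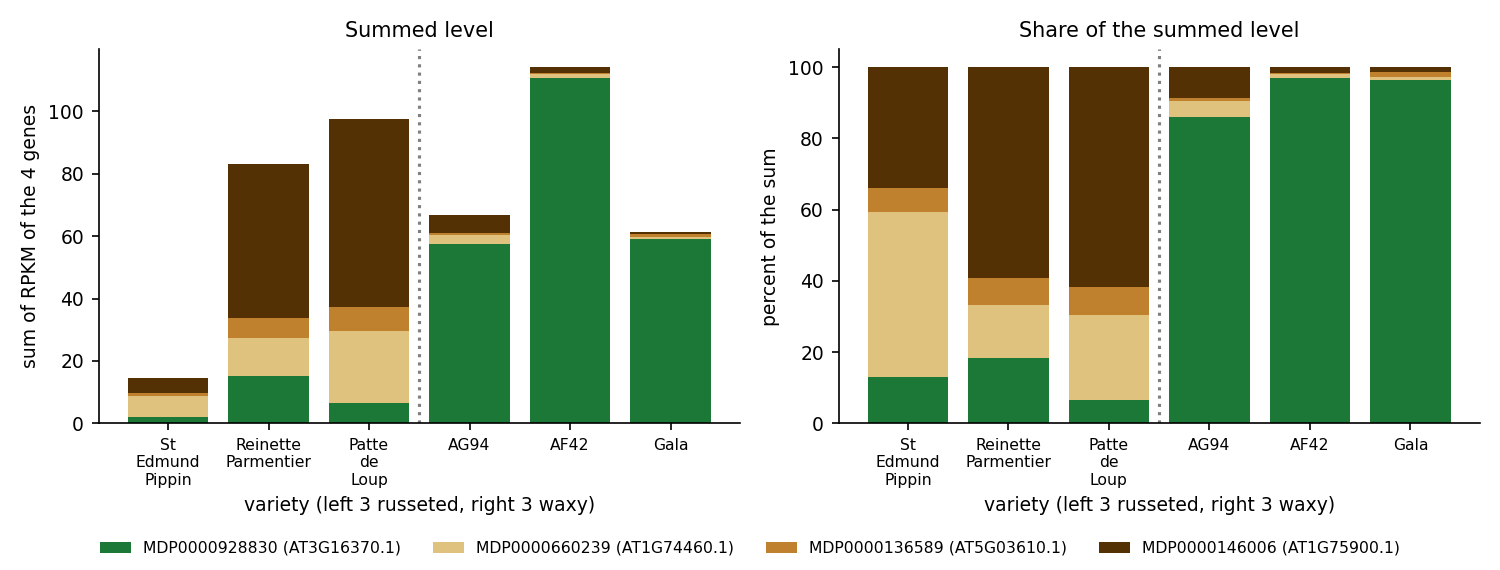
Sum of the RPKM of the 4 GDSL genes in each variety (left) and the percent of that sum from each gene (right), with russeted varieties left of the dotted line. MDP0000928830 makes up 85.9% to 96.8% of the sum in waxy and 6.66% to 18.4% in russeted varieties, while the sums themselves overlap.

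Ratios between genes within a library do not depend on how libraries are scaled to each other. The ratio of MDP0000146006 to MDP0000928830 (RPKM over RPKM) was 2.64 in St Edmund Pippin, 3.21 in Reinette Parmentier and 9.25 in Patte de Loup, and 0.0998 in AG94, 0.0177 in AF42 and 0.0139 in Gala. That is a difference of 7.20 between the phenotype means on the log2 scale. MDP0000660239 over MDP0000928830 was 0.798 to 3.61 in russeted and 0.0105 to 0.0542 in waxy varieties, a log2 difference of 6.80. MDP0000136589 over MDP0000928830 was 0.419 to 1.19 in russeted and 0.00235 to 0.0147 in waxy varieties, a log2 difference of 6.47. None of these ratios overlapped between the phenotypes, including that of MDP0000146006, whose own level did (exact permutation test of the log2 ratios, two-sided, p = 0.1 for each, the smallest possible). Each ratio sets a gene listed as higher in russeted skins over 1 listed as lower, so the separation largely follows from the authors' selection. For MDP0000146006 the gap between St Edmund Pippin and AG94 came from MDP0000928830 (1.89 against 57.4 RPKM). MDP0000146006 itself was at 4.99 and 5.73 RPKM there.

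Order within a library changed as well. MDP0000928830 was the highest of the 4 genes in every waxy variety. In the russeted varieties it was the third of the 4 in St Edmund Pippin, the second in Reinette Parmentier and the last in Patte de Loup. MDP0000146006 led in Reinette Parmentier and Patte de Loup, and MDP0000660239 led in St Edmund Pippin, at 6.82 RPKM against 4.99 for MDP0000146006.

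The share of reads placed at 1 gene only sets how far a level belongs to the named copy. Over the 6 libraries it was 99.3% for MDP0000928830 (3311 of 3334 reads), 62.6% for MDP0000660239 (582 of 930), 30.2% for MDP0000136589 (95 of 315) and 26.6% for MDP0000146006 (668 of 2509). The median listed gene had 93.6%, and 254 of the 1261 had under 50%. So the levels of MDP0000136589 and MDP0000146006 rest mostly on reads that also matched another gene, and which copy those reads came from cannot be told.

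Read by variety, the share for MDP0000928830 was never below 99.1% (AG94, 95% exact Clopper-Pearson interval 98.4% to 99.6%). MDP0000146006 had 17 unique of 66 reads in St Edmund Pippin, 298 of 1092 in Reinette Parmentier and 319 of 1206 in Patte de Loup, and 28 of 112 in AG94, 4 of 24 in AF42 and 2 of 9 in Gala. Its shares ran from 16.7% in AF42 (interval 4.74% to 37.4%) to 27.3% in Reinette Parmentier (24.7% to 30.04%), and the phenotypes could not be separated at this depth. MDP0000660239 had 65 unique of 92 reads in St Edmund Pippin, 168 of 277 in Reinette Parmentier and 282 of 474 in Patte de Loup, and 49 of 62 in AG94, 13 of 18 in AF42 and 5 of 7 in Gala. Its share was lowest in Patte de Loup, at 59.5% (54.9% to 63.9%), and highest in AG94, at 79.0% (66.8% to 88.3%). MDP0000136589 had 7 unique of 12 reads in St Edmund Pippin, 38 of 134 in Reinette Parmentier and 40 of 146 in Patte de Loup, and 4 of 11 in AG94, 2 of 3 in AF42 and 4 of 9 in Gala. Its share was 29.1% over the russeted and 43.5% over the waxy libraries, and 27.4% in Patte de Loup (20.3% to 35.4%) against 66.7% in AF42 (9.43% to 99.2%).

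Directions were the same when unique reads alone were counted. Levels from unique reads averaged 75.2 ± 29.9 (SD, n = 3) in waxy and 7.86 ± 6.79 RPKM in russeted exocarp for MDP0000928830, a 9.56-fold fall. They averaged 8.67 ± 4.61 RPKM in russeted skins and 1.31 ± 1.03 RPKM in waxy skins for MDP0000660239, a 6.60-fold rise. For MDP0000146006 they were 10.2 ± 7.82 and 0.647 ± 0.684 RPKM, a 15.8-fold rise, and for MDP0000136589 1.5 ± 0.826 and 0.259 ± 0.112 RPKM, a ratio of 5.79. In edgeR's quasi-likelihood test on unique reads the log2 fold change was -3.25 (adjusted p = 0.0153) for MDP0000928830, 2.68 (0.0366) for MDP0000660239 and 3.88 (0.0251) for MDP0000146006. MDP0000136589 was removed there by the low-count filter. In that fit 15.4% of 1217 tested genes rose and 8.55% fell.

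**Figure D3:**
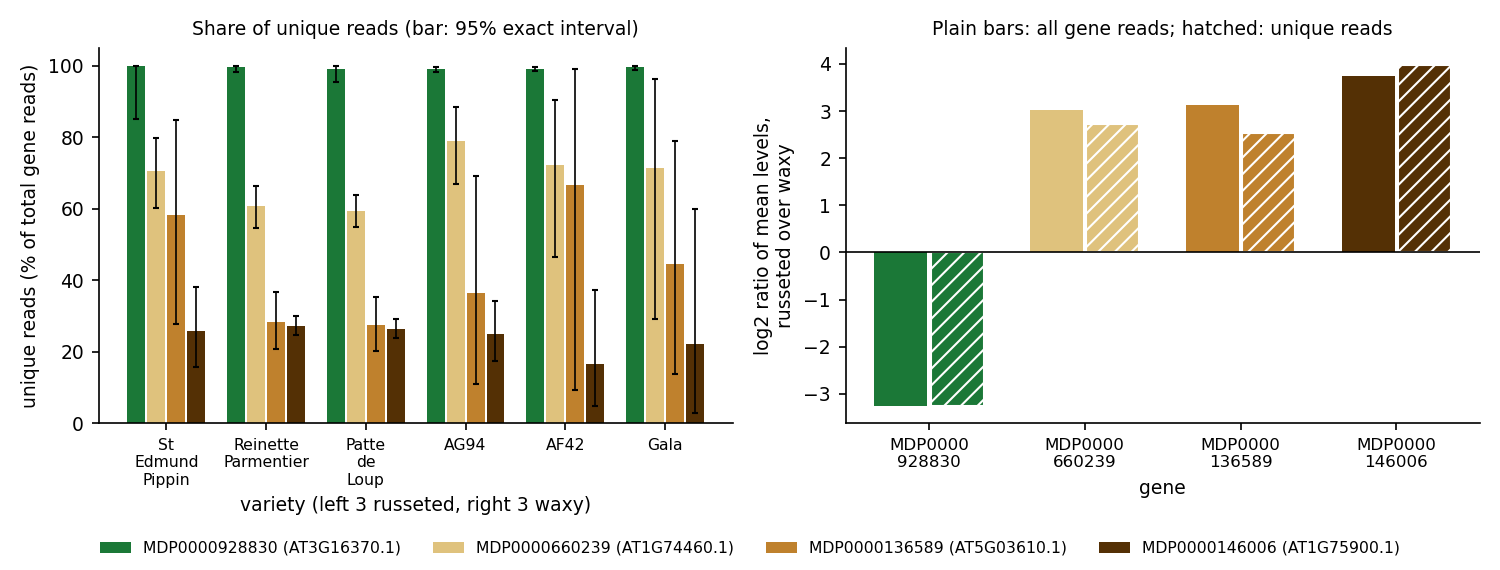
Left, percent of the gene reads in each variety that were unique to the gene, with 95% exact binomial intervals; right, log2 ratio of the mean russeted to the mean waxy level from all gene reads (plain) and unique reads (hatched). MDP0000928830 has nearly all its reads unique, MDP0000146006 and MDP0000136589 have 26.6% and 30.2% over the 6 libraries, and the sign of each ratio is the same from both kinds of read.

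Scaling changed the calls of the risen genes but not their direction. TMM factors, an alternative that centres the bulk of the genes on no change, were computed on the listed genes and moved the median log2 fold change of all tested genes by -1.0, from 1.19 to 0.19. Under them the log2 fold change was 1.99 for MDP0000660239, 2.09 for MDP0000136589 and 2.74 for MDP0000146006, with adjusted p of 0.118, 0.211 and 0.0932 (edgeR's quasi-likelihood test), so 0 of the 4 rose. At an unadjusted p under 0.05 all 3 were higher there, and DESeq2 with its own size factors called 2 of them. MDP0000928830 fell there too, with a log2 fold change of -4.20 (adjusted p = 0.0058). With TMM factors 3.44% of the 1250 tested genes rose and 23.8% fell. Every listed gene had an absolute deposited log2 fold of at least 1, so the list lacked the unchanged bulk that TMM factors assume. DESeq2's own size factors came from the same listed genes. Counts under either scaling are therefore given as alternatives only.

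**Figure D4:**
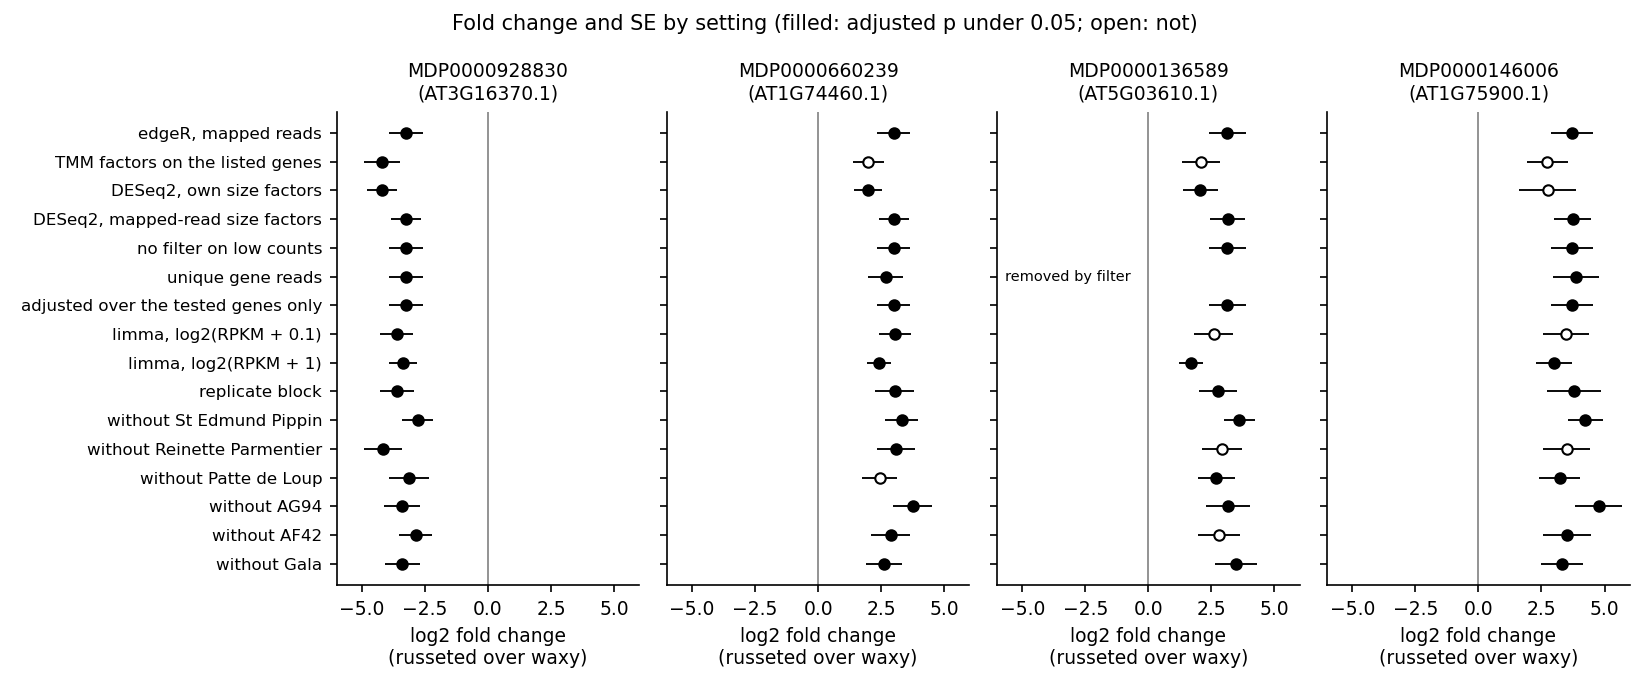
Log2 fold change (russeted over waxy) of each GDSL gene with its SE under each setting; filled points have an adjusted p under 0.05, open points do not. Every point of MDP0000928830 is filled and below 0, from -4.21 to -2.79; the points of the other 3 genes are above 0, and 10 of them are open.

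The table was then searched for the 2 described genes, other than GDSL genes, whose profile over the 6 varieties lay nearest to each GDSL gene. Likeness was the root mean square difference of log2(RPKM + 0.1), with each gene centred at its own mean; smaller is nearer. The 1048 genes compared were themselves selected for the phenotype difference, so near profiles are easily found in them, and the distances are descriptions.

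Nearest to MDP0000660239 was a copy of CYP86B1 (MDP0000234292), a P450 that oxidises very-long-chain fatty acids for suberin in Arabidopsis, at a distance of 0.21 where the median gene was at 1.28. The second was MDP0000241976, an ABC-2 type transporter gene, at 0.26, with 15.5% unique reads. Nearest to MDP0000146006 was a copy of CYP86A1 (MDP0000879217), the fatty acid hydroxylase of Arabidopsis root suberin, at 0.35 against a median of 1.85. ENODL17 (MDP0000923711), which encodes an early nodulin-like protein, followed at 0.36. The russeted and waxy means were 21.1 ± 9.44 and 2.91 ± 1.64 RPKM (SD, n = 3) for CYP86B1 and 67.8 ± 49.6 and 6.93 ± 6.88 RPKM for CYP86A1.

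MDP0000136589 lay nearest to OMT1 (MDP0000274409), an O-methyltransferase gene, at 0.38, and to a histone gene, MDP0000222633, at 0.39, where the median gene was at 1.43. The histone gene had 32.9% unique reads, MDP0000136589 30.2% and MDP0000146006 26.6%, so these profiles rest mostly on shared reads. MDP0000136589 also had only 3 to 12 reads in St Edmund Pippin and the waxy varieties. For MDP0000928830 the nearest were an HXXXD-type acyltransferase gene, MDP0000126620, at 0.41 and a gene for a protein with an NAD(P)-binding Rossmann fold, MDP0000119035, at 0.51, against a median of 2.64. The acyltransferase gene had a russeted mean of 2.45 ± 1.75 RPKM (SD, n = 3) and a waxy mean of 23.2 ± 5.42 RPKM. Among themselves the 3 risen GDSL genes lay at 0.78 for MDP0000660239 and MDP0000146006, 1.03 for MDP0000660239 and MDP0000136589, and 1.08 for MDP0000136589 and MDP0000146006. Set among the 1048 described genes by distance from MDP0000146006, MDP0000660239 would rank 11 and MDP0000136589 would rank 43. From MDP0000660239, MDP0000146006 would rank 92 and MDP0000136589 would rank 228. From MDP0000136589, MDP0000660239 would rank 115 and MDP0000146006 would rank 149. MDP0000928830 was 3.22 to 3.69 from each of the 3 risen genes.

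**Figure D5:**
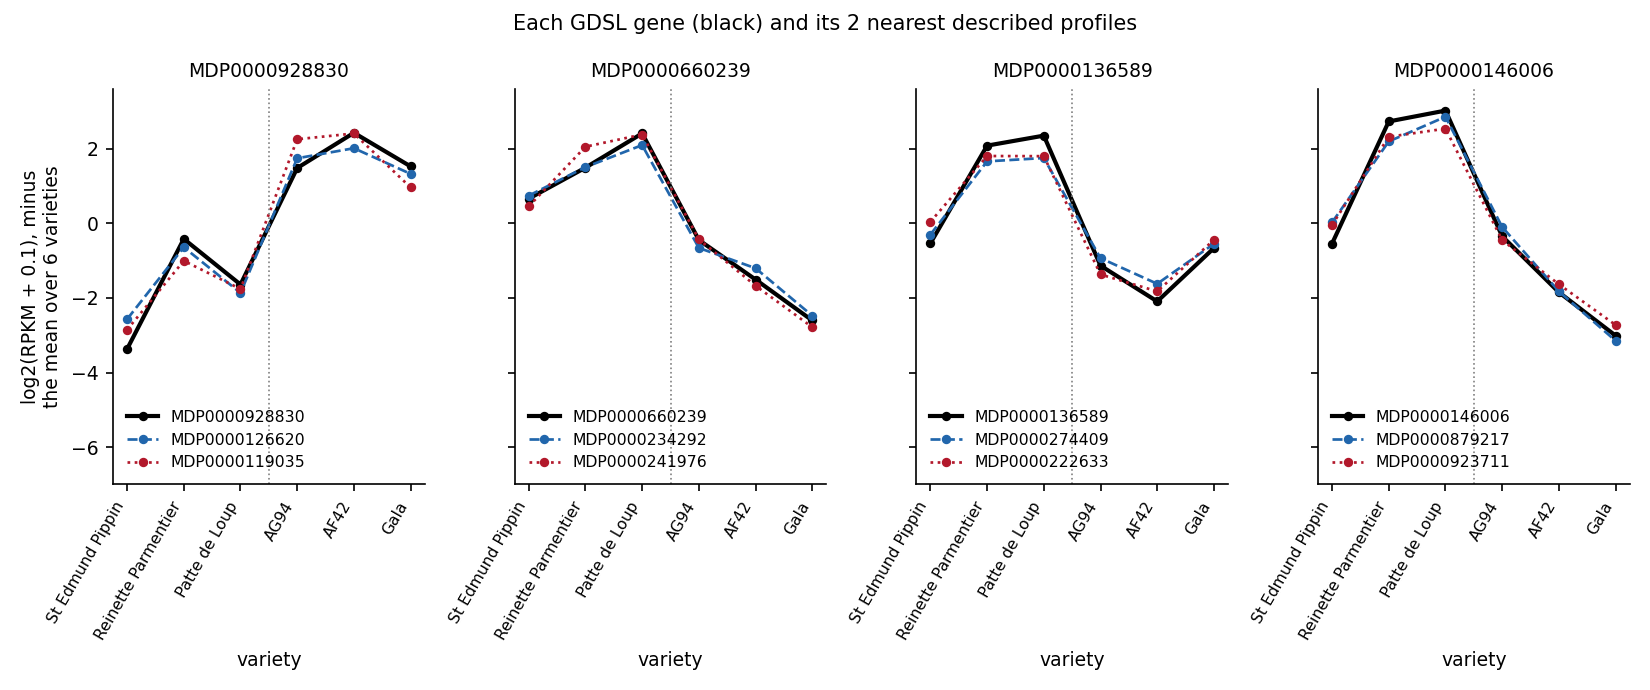
Profile of each GDSL gene (black) and of the 2 described genes nearest to it (dashed and dotted), as log2(RPKM + 0.1) minus the mean over the 6 varieties; lines only join the points of a gene. The nearer gene of each pair lies 0.21 to 0.41 away, with St Edmund Pippin the lowest russeted variety in each black profile.

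Genes for suberin, cutin and wax, the lipids of cork and cuticle, also differed between the skins. Of 9 tested genes for suberin monomers and their export 8 rose and 0 fell (median log2 fold change 3.18), and of 3 for cutin monomers and cuticle export 0 rose and 3 fell (median -4.59). Of 8 wax synthesis genes 0 rose and 6 fell (median -3.31), against a median of 1.19 over all 1246 tested genes, of which 19.2% rose and 9.31% fell. With TMM factors 2 suberin genes rose and 1 fell, while 3 cutin and 8 wax genes fell, where 3.44% of all tested genes rose and 23.8% fell. GPAT5 (MDP0000150502), the acyltransferase of suberin precursors, rose by 4.06 ± 0.70 on the log2 scale (SE; edgeR's quasi-likelihood test, adjusted p = 0.00481). In GPAT6 (MDP0000479163), its counterpart for cutin, the log2 fold change was -3.87 ± 0.68 (adjusted p = 0.00505).

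Genes of other families described as lipase, esterase or alpha/beta-hydrolase were called in both directions. The alpha/beta-hydrolase description names a superfamily only, so what those genes act on is not known from it. Of 11 tested lipase, esterase and alpha/beta-hydrolase genes 3 rose, 3 fell and 5 did not pass (median log2 fold change 0.90), beside 19.2% risen and 9.31% fallen over all tested genes, so the risen share was near that background. With TMM factors 0 of the 11 rose and 5 fell, beside 3.44% and 23.8%. Both copies matched to AT3G24420.1 fell, with log2 fold changes of -5.28 ± 0.87 in MDP0000430391 (SE; edgeR's quasi-likelihood test, adjusted p = 0.00392) and -3.40 ± 0.73 in MDP0000298959 (adjusted p = 0.0132). These alpha/beta-hydrolase genes averaged 111 and 141 RPKM in waxy and 2.82 and 13.4 RPKM in russeted exocarp. The risen genes with the smallest p were both alpha/beta-hydrolase genes, MDP0000202596 (log2 fold change 2.45 ± 0.55) and MDP0000235111 (2.5 ± 0.57), each with an adjusted p of 0.0164. They were far less abundant, at 5.32 and 6.82 RPKM in russeted exocarp.

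All 6 cork marker genes rose (2 with TMM factors) and all 5 epidermis and cuticle marker genes fell (5 with TMM factors). The background for these and the other marker counts was 19.2% of tested genes called higher in russeted skins and 9.31% called lower. Under TMM scaling the background was 3.44% called higher and 23.8% called lower, so a fall was common there and a rise rare. Every cork marker is also in the suberin list above, and every epidermis and cuticle marker in the cutin or wax list. The markers are thus no separate support. Of the suberin genes not taken as markers, MDP0000265619 and MDP0000241976 rose. KCS2 (MDP0000625646) had a log2 fold change of -1.61 (edgeR's quasi-likelihood test, adjusted p = 0.182) and fell with TMM factors (adjusted p = 0.0327). The summed level of the 6 cork genes (CYP86A1, CYP86B1, GPAT5 and an acyltransferase gene, with their copies) was 105 RPKM in St Edmund Pippin, 351 in Reinette Parmentier and 530 in Patte de Loup, and 61.0 in AG94, 22.9 in AF42 and 16.45 in Gala. That is also the order of MDP0000660239 among the varieties, but not of MDP0000136589 or MDP0000146006. Among all risen genes Patte de Loup was the highest russeted variety in 52.3% and Gala the lowest waxy variety in 53.1%. How many share the whole order was not counted. The 5 epidermis and cuticle genes (ABCG11, KCS6, CER1 and GPAT6, with copies) summed to 6.80 to 43.9 RPKM in russeted and 354 to 650 RPKM in waxy varieties, and St Edmund Pippin was again the lowest. Of the 4 vascular genes, all for phloem protein, 2 rose (0 with TMM factors) and 2 did not pass, and they summed to 50.3 to 102 RPKM in russeted and 15.0 to 30.6 RPKM in waxy varieties. The 5 photosynthetic genes were picked by words of their descriptions, and none passed in edgeR's test (3 had an unadjusted p under 0.05). With TMM factors 1 of them fell. The 3 with log2 fold changes below 0 were 2 ELIP1 copies and PSB29. The 2 above 0 both matched AT1G69680.1, described as Mog1/PsbP/DUF1795-like, so their place in this list rests on that wording only. The 5 genes summed to 479 to 3821 RPKM in russeted and 3702 to 7719 RPKM in waxy varieties. Most of that came from the ELIP1 copy MDP0000840536, with means of 1627 and 5405 RPKM. No marker was at 0 in any library, but every listed gene had at least 1 read in each library, so this is no trait of the markers. In bulk skin fewer cells of a type and less RNA per cell cannot be told apart, and the part of tissue makeup in the GDSL values was not tested.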

How the data were processed

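The labels' protocols give poly(A) RNA libraries from fruit exocarp, made with a kit that does not mark strand. Per the file headers, the authors used CLC Genomics Workbench 6.5; the aligner settings and build were not given in the sources used here. It holds deposited counts (total and unique gene reads), RPKM values that the authors scaled by coding length and mapped reads, their mean RPKM per phenotype, and their comparison by Baggerley's test: a deposited signed fold (a score), its log2, a p-value and a false discovery rate. Listed genes have a rate up to 0.2 and an absolute log2 fold of at least 1.

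Mapped reads per library, recovered from reads, length and RPKM, were 11.3 M, 19.1 M and 17.2 M (St Edmund Pippin, Reinette Parmentier, Patte de Loup) and 16.8 M, 10.5 M and 9.44 M (AG94, AF42, Gala). They served as library sizes for edgeR 4.0.16 in R 4.3.3 (quasi-likelihood, two-sided, total gene reads, 1246 genes left by the low-count filter). It was fitted over the whole table and tested on simulated data. Those data had mostly unchanged genes and less spread between libraries than the real ones, so that test checks the code only. P values were adjusted over 6449 genes, the number that the deposited rates imply to within 0.5%; unlisted genes were taken to have larger p. The SE is the log2 fold change over the square root of F. Reads carried no molecular identifiers, so intervals cover counting error only. Nothing says that replicates share a source across phenotypes, so samples were not paired. TMM, DESeq2 1.42.0, limma 3.58.1, unique reads, other filters and left-out varieties were alternatives.

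Every GDSL gene was named, called or not; of the other lists, up to 2 risen and 2 fallen genes with the smallest p could be named. The genes and lists were chosen with earlier results of these data known.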

Additional observations from a re-analysis of the deposited data

How the results depend on the processing

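Over 59 values of the 4 genes under other settings, the direction was the same in 59 and the adjusted p stayed under 0.05 in 49. MDP0000928830 passed in all 15 alternatives (log2 fold change -4.21 to -2.79). Of the 10 lost calls, 7 are given above, under TMM factors (0 GDSL genes rose) or without 1 variety. With limma on log2(RPKM + 0.1) 1 GDSL gene rose, and MDP0000136589 (adjusted p = 0.0858) and MDP0000146006 (0.0525) were lost. Over all tested genes 157 rose and 103 fell there. With DESeq2 and its own size factors MDP0000146006 was lost (0.184). The cause was not tested. Leaving out 1 variety gave 1 to 3 risen and 1 to 1 fallen GDSL genes, and without Reinette Parmentier it was 1 risen. Over all tested genes, leaving out 1 variety gave 134 to 194 risen and 67 to 105 fallen, against 239 and 116 with all varieties. Without Reinette Parmentier 135 rose and 73 fell.

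Among all tested genes 239 rose and 116 fell, against 43 and 297 with TMM factors, 114 and 320 with DESeq2's own size factors, 540 and 265 with DESeq2 on mapped reads, and 597 and 290 adjusted over the tested genes only. With the replicate block 3 GDSL genes rose and 1 fell, and 209 and 110 in all; same-numbered varieties had deviations correlated at -0.08 to -0.01, and 0 of 6 samples correlated best with its own number. MDP0000136589, with 3 to 11 waxy reads, is the value that depth limits most.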
